A study of Mus musculus with 4 samples.

Results

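The 6 genes described here are H2-Aa, H2-Ab1, H2-Eb1, H2-DMa, Cd74 and Ciita, which belong to the MHC class II pathway of antigen presentation. They were taken as the probe sets whose annotated gene symbol is exactly 1 of these names, which gave 10 probe sets for 6 genes, of 12393 genes in all. Their RNA was measured in cultures labelled as mouse synovial fibroblasts, cells of the joint lining, on 1-colour Affymetrix GeneChips. In these dishes 12 of 14 macrophage markers were also above the floor described below on all arrays, against 50.3% of all genes. The RNA is thus not taken as that of fibroblasts alone. The cells came from knees of naïve male DBA/1J mice aged 8 to 12 weeks, were passaged 3 to 4 times, and were kept in medium with low serum for the 6 h of treatment. Of the 4 dishes, 1 received IL-1β (5 ng/ml) with indomethacin (1 µM) and iloprost (1 µM), 1 received IL-1β with indomethacin, 1 received IL-1β alone, and 1 received vehicle. They are called the iloprost, indomethacin, IL-1β and vehicle dishes below, so the first 3 all held IL-1β, and the first 2 both held indomethacin. IL-1β is an inflammatory cytokine, indomethacin a cyclooxygenase inhibitor that stops prostanoid synthesis, and iloprost a stable analogue of prostacyclin. Per the series title, the question was how prostacyclin signalling acts on fibroblasts activated by IL-1β. A dish with iloprost and IL-1β but no indomethacin is not analysed here.

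MHC class II molecules carry peptides from endosomes to the cell surface, where CD4+ T cells read them. The alpha and beta chains pair in the endoplasmic reticulum around the invariant chain, which is later cut away, and H2-DM then helps to load a peptide. Transcription of these genes depends on the co-activator CIITA, which binds no DNA itself but is held at the S, X and Y boxes of class II promoters by the RFX complex, NF-Y and CREB proteins. Dendritic cells, B cells and macrophages are the usual sources, and fibroblasts are known to make class II when interferon-gamma induces Ciita. DBA/1J mice carry the H-2q haplotype, known for its class II A molecule in collagen-induced arthritis.

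The promoter sequences are shown for letters of the boxes through which CIITA is known to act, which matched at H2-Aa and H2-Eb1, while no X or Y box letters matched in the H2-DMa promoter printed. RefSeq promoters (GRCm38.p6, the C57BL/6J reference and not DBA/1J) were at hand for 3 of the 6 genes. Each line runs 5′ to 3′ on the gene's strand, from 250 bases before the start site to 50 bases after it. Capitals mark matches on either strand to the S box core GGACC, the X1 box letters AGCAAC or a longer X1 form in which any base and GATG follow them, the X2 box letters TGNGTCA or TGACGTCA, and the Y box letters CTGATTGG. The letters TGACGTCA were added after the sequences had been read.
H2-Aa: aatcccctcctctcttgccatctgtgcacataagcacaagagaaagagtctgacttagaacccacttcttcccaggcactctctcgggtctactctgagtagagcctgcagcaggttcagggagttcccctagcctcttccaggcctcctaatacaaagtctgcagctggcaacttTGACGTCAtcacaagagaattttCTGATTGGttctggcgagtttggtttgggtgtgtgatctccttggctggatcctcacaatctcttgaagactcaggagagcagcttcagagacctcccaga
H2-Eb1: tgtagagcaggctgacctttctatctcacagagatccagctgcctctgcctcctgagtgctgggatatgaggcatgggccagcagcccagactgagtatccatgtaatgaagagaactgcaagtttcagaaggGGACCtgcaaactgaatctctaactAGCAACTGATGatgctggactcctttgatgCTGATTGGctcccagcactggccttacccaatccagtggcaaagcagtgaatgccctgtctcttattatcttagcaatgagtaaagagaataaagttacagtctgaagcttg
H2-DMa: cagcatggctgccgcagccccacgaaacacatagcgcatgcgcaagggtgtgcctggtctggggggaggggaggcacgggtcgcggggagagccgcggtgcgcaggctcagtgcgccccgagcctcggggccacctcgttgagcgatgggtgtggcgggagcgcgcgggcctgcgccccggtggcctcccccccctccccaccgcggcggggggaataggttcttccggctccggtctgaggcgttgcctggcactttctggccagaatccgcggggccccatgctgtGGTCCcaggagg

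The promoter of H2-Aa lies at chr17:34287774-34288073 on the minus strand, that of H2-Eb1 at chr17:34305617-34305916 on the plus strand, and the H2-DMa start shown at chr17:34122582-34122881 on the plus strand. H2-Aa held CTGATTGG at positions -51 to -44 from the start site, and TGACGTCA upstream of it at -74 to -67. H2-Eb1 held CTGATTGG at -62 to -55, the longer X1 form at -92 to -82 as AGCAACTGATG, and GGACC at -117 to -113. Both classical genes thus had the Y box letters within a like distance of the start. In H2-Eb1 they were preceded by X1 letters chosen beforehand. In H2-Aa no X letters chosen beforehand matched. The TGACGTCA there was added after the sequence had been read, so a shared X box is not read from it. Of 32851 promoters of the same length, 4.1% held CTGATTGG on either strand, 1.79% TGACGTCA, 0.07% the longer X1 form, 14.8% AGCAAC, 15.4% TGNGTCA and 45.5% GGACC. In H2-Eb1 the AGCAAC letters lie inside the longer X1 match. In the H2-DMa promoter shown, the match was GGTCC, the S core on the opposite strand, at 39 to 43 after the start. A further H2-DMa start, not printed, held the X2 box letters as TGAGTCA at -86 to -80 and GGACC at -194 to -190. It also held ATTGG at -198 to -194. The letters ATTGG, the inner part of the Y box, were in 37.4% of promoters and are not capitalised where they stand alone. A match of letters is a description and not a binding site.

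Each probe set was set against a floor, the 50th percentile of all values after the 4 arrays were scaled to the same median gene. This floor is a cut-off and not a measured background. On the deposited signal scale the floor stood at 37.4 for the iloprost dish, 37.2 for the indomethacin dish, 41.2 for the IL-1β dish and 35.2 for the vehicle dish. Of the 40 signals of the 10 probe sets, 38 were below the floor of their array and 2 were above it. Both signals above the floor were those of Cd74. Of the 6 genes, 5 were below the floor on all 4 arrays, where 42.3% of all 12393 genes were. None of the 6 was above the floor on all 4 arrays, where 50.3% of all genes were.

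**Figure D1:**
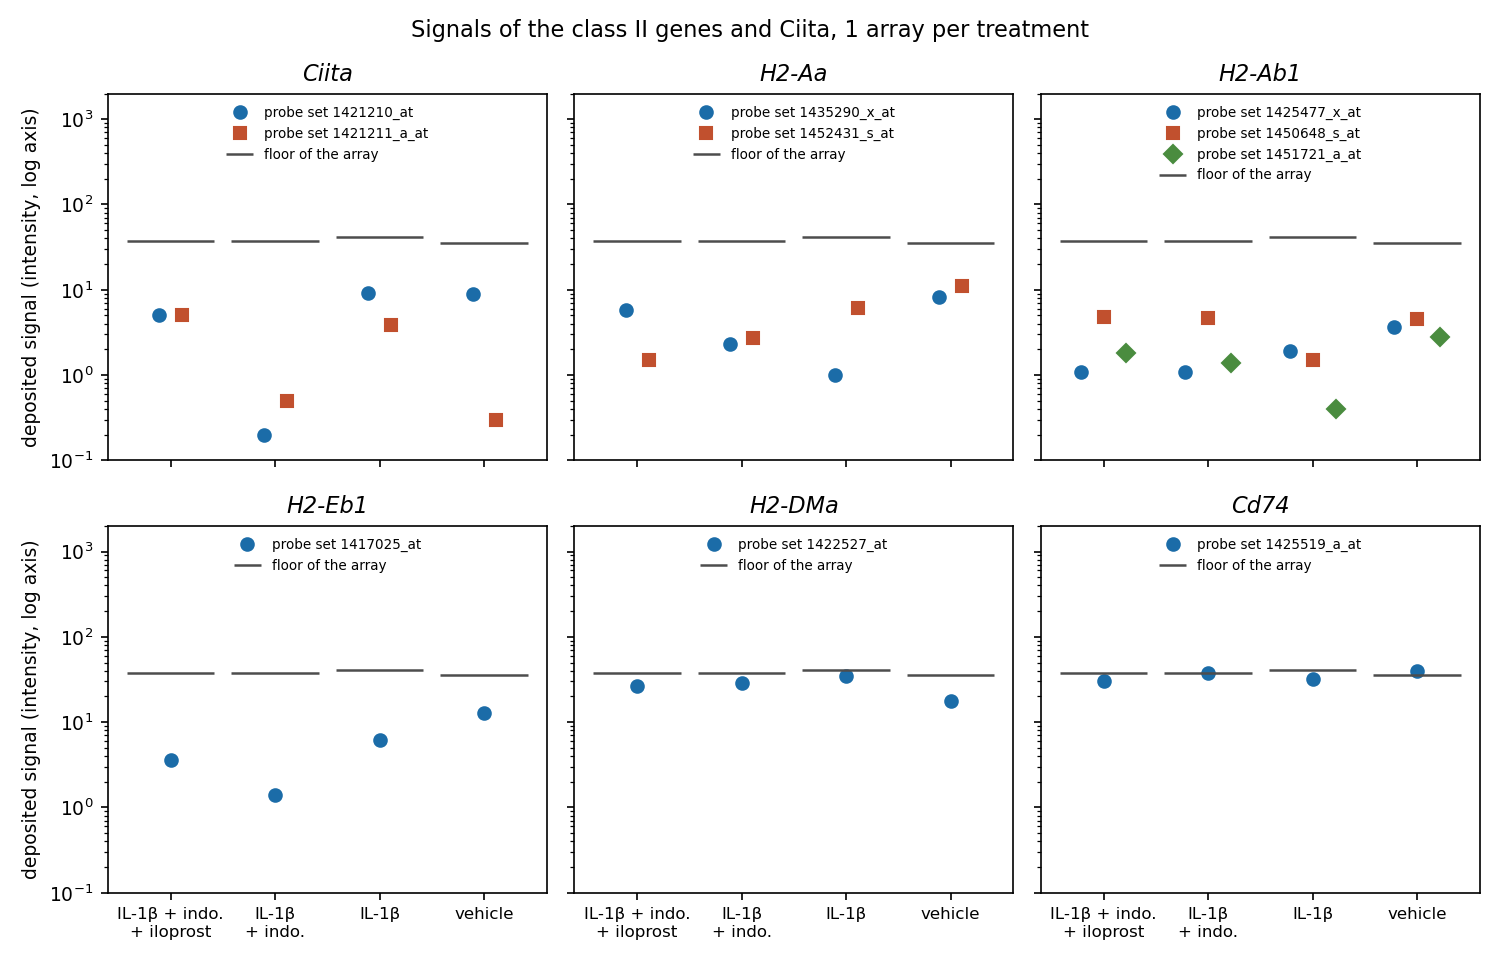
Deposited signal (intensity, log axis) of each probe set of Ciita, H2-Aa, H2-Ab1, H2-Eb1, H2-DMa and Cd74 on the 4 arrays, 1 dish per treatment and no error bars, with indomethacin shortened to indo. Short horizontal lines are the floor of each array. Points above a line occur only in the Cd74 panel, in the indomethacin (37.5) and vehicle (40.3) dishes.

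Ciita, the regulator that switches the class II genes on, was not above the floor in any dish. Its probe set with the suffix _at had signals of 5.0 in the iloprost dish, 0.2 in the indomethacin dish, 9.1 in the IL-1β dish and 9.0 in the vehicle dish. Its probe set with the suffix _a_at had signals of 5.1, 0.5, 3.9 and 0.3 in the iloprost, indomethacin, IL-1β and vehicle dishes. The vehicle dish was within 0.1 of the highest signal for the _at probe set and was the lowest for the _a_at probe set, and values under the floor have no order.

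H2-Aa encodes the alpha chain of the class II A molecule, whose promoter holds the Y box letters shown above. Its probe set with the suffix _s_at had signals of 1.5 in the iloprost dish, 2.7 in the indomethacin dish, 6.2 in the IL-1β dish and 11.2 in the vehicle dish. The _x_at probe set, whose probes may also bind related transcripts, had signals of 5.8, 2.3, 1.0 and 8.3 in the iloprost, indomethacin, IL-1β and vehicle dishes. Both probe sets were highest in the vehicle dish and lowest in different dishes, and every one of these signals was below the floor.

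H2-Ab1 encodes the beta chain that pairs with the H2-Aa product. Its probe set with the suffix _s_at had signals of 4.8 in the iloprost dish, 4.7 in the indomethacin dish, 1.5 in the IL-1β dish and 4.5 in the vehicle dish. The _x_at probe set read 1.1, 1.1, 1.9 and 3.7 in the iloprost, indomethacin, IL-1β and vehicle dishes. For the _a_at probe set the signals were 1.8, 1.4, 0.4 and 2.8 in that same order of dishes. The _x_at and _a_at probe sets were highest in the vehicle dish and the _s_at probe set in the iloprost dish.

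H2-Eb1 encodes the beta chain of the class II E molecule. Its probe set had signals of 3.6 in the iloprost dish, 1.4 in the indomethacin dish, 6.1 in the IL-1β dish and 12.9 in the vehicle dish. Mice of the H-2q haplotype are known not to make the partner alpha chain, encoded by H2-Ea. The brightest H2-Ea probe set had signals of 7.3, 4.1, 4.7 and 4.1 in the iloprost, indomethacin, IL-1β and vehicle dishes, all below the floor. Taken over H2-Aa, H2-Ab1 and H2-Eb1, the 6 probe sets of the peptide-binding chains had 24 signals between 0.4 and 12.9. The vehicle dish had the highest signal for 5 of these 6 probe sets, as it did for 19.3% of the 9139 named probe sets below the floor on all arrays. Probe sets of 1 gene share its transcript, so these are not independent, and no difference between dishes is read from signals below the floor. Whether the probes of these polymorphic genes match the DBA/1J alleles was not tested.

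H2-DMa encodes the alpha chain of H2-DM, which exchanges the invariant chain remnant for a peptide. It had signals of 26.3 in the iloprost dish, 28.8 in the indomethacin dish, 34.5 in the IL-1β dish and 17.8 in the vehicle dish. All were below the floor, so no ratio is given at this floor. With the floor lowered to the 35th percentile its log2 ratio was 0.73 for IL-1β over vehicle, 0.62 for indomethacin over vehicle and 0.48 for iloprost over vehicle. These 3 ratios share the vehicle dish, and they stayed under 2-fold. In the same setting, it was at -0.11 for indomethacin over IL-1β and at -0.14 for iloprost over indomethacin.

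Cd74 encodes the invariant chain, which guides class II molecules to endosomes and also serves as a receptor for the cytokine MIF. It had signals of 30.4 in the iloprost dish, 37.5 in the indomethacin dish, 31.8 in the IL-1β dish and 40.3 in the vehicle dish. The indomethacin and vehicle dishes were thus just above their floors of 37.2 and 35.2, and the other dishes were below theirs. The 1 ratio with both dishes above the floor was -0.18 for indomethacin over vehicle, on the log2 scale relative to the median gene. The ratio was at most -0.19 for IL-1β over vehicle and at most -0.19 for iloprost over vehicle, bounds set by the floor. It was at least 0.01 for indomethacin over IL-1β and at most -0.01 for iloprost over indomethacin. For iloprost over IL-1β both dishes were below the floor. With the floor at the 35th percentile, all 4 dishes were above it, and the ratio was -0.57 for IL-1β over vehicle and -0.49 for iloprost over vehicle. There it was 0.39 for indomethacin over IL-1β, -0.31 for iloprost over indomethacin and 0.07 for iloprost over IL-1β. Cd74 was thus below the vehicle dish in that setting where H2-DMa was above it, and these ratios too share the vehicle dish.

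There was 1 array per dish, so the data hold no spread between dishes and no test or p-value between treatments. As a measure of noise within arrays, log2 ratios of probe sets of 1 gene differed with an SD of 0.20 to 0.21 in the 6 comparisons. This SD holds no difference between dishes, so it does not say whether a ratio between 2 dishes would recur. Of the 6 genes, 0 were at least 2-fold higher or lower in any comparison, but in each at most 1 of them could be measured, and most of these values are bounds. Among all genes measured, 3.21% were at least 2-fold lower and 1.98% higher for iloprost over indomethacin. For indomethacin over IL-1β these shares were 0.672% lower and 0.248% higher, and for IL-1β over vehicle 0.519% lower and 1.77% higher. For iloprost over IL-1β they were 2.45% lower and 0.887% higher, for indomethacin over vehicle 0.319% lower and 1.35% higher, and for iloprost over vehicle 3.33% lower and 2.79% higher.

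Signals below the floor were compared between arrays over all named probe sets. Of the 20380 probe sets with 1 named gene, 9139 were below the floor on all 4 arrays, and for the 9136 of these with no zero the highest signal was a median of 3.39 times the lowest, with the middle 95% between 1.25 and 32.0 times. The same ratio was 7.47 for the median of the 9 probe sets of Ciita, H2-Aa, H2-Ab1, H2-Eb1 and H2-DMa, and it ran from 1.94 for H2-DMa to 45.5 for a Ciita probe set. Probe sets above the floor on all arrays had a median of 1.30 times, after the arrays were scaled. The array's probe sets for bacterial trpn, a transcript that no mouse cell makes, had 12 signals between 0.2 and 6.5. Signals of Ciita, H2-Aa, H2-Ab1 and H2-Eb1, from 0.2 to 12.9, overlapped that range. Those of H2-DMa, from 17.8 to 34.5, and of Cd74, from 30.4 to 40.3, were above it, so below the floor does not mean absent. No member was above the floor on all arrays, so no gene was named for a pattern like that of a member.

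The other class II genes on the arrays were also below the floor. With H2-Ea, H2-Oa and H2-DMb2 added, the list of class II chains and peptide editors had 8 genes with a usable probe set, of which 7 were below the floor on all arrays. H2-Oa, an inhibitor of H2-DM, had signals of 3.3, 13.5, 16.7 and 24.2 in the iloprost, indomethacin, IL-1β and vehicle dishes. H2-DMb2, a beta chain of H2-DM, had 6.2, 19.2, 10.5 and 17.2 in those dishes. The signals of the 8 genes were also summed as deposited, before the arrays were scaled. The sum was 83.4 in the iloprost dish, 111.9 in the indomethacin dish, 112.0 in the IL-1β dish and 132.2 in the vehicle dish. Since 7 of the 8 genes were below the floor on all arrays, no order of dishes is read from it. H2-DMb1 is not analysed here, since its probe sets name several genes.

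**Figure D2:**
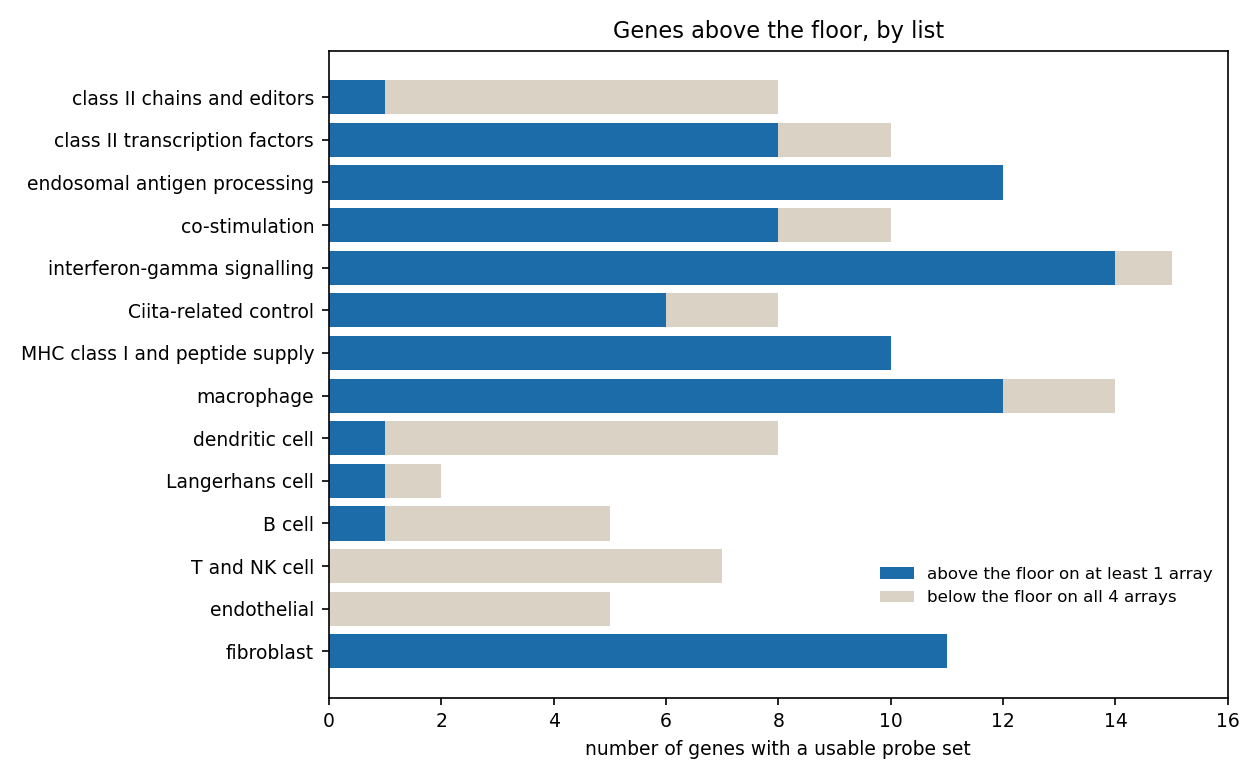
Number of genes with a usable probe set in each list. Bars are split into genes above the floor on at least 1 array and genes below it on all 4. Of all 12393 genes, 42.3% were below it on all 4. Of the class II chains and editors 1 of 8 was above the floor, against 12 of 12 endosomal processing genes, 10 of 10 genes of the class I and peptide supply list, which has 2 class I chains, and 12 of 14 macrophage markers.

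Genes of the DNA-binding partners of CIITA, other than Rfxank, were above the floor in all dishes, while Ciita was above it in none. Rfx5, the RFX subunit that contacts the X box, had signals of 118.4 in the iloprost dish, 125.9 in the indomethacin dish, 111.1 in the IL-1β dish and 169.1 in the vehicle dish. The vehicle dish was the highest, with a log2 ratio of -0.83 for IL-1β over vehicle and of -0.60 for iloprost over vehicle. Rfxap, another RFX subunit, had signals of 74.2, 71.1, 59.9 and 49.6 in the iloprost, indomethacin, IL-1β and vehicle dishes, and Rfxank was above the floor only in the iloprost dish, at 44.9. The NF-Y subunit Nfya, which binds the Y box, had signals of 211.3, 192.5, 195.7 and 179.6 in the iloprost, indomethacin, IL-1β and vehicle dishes. Of the 10 class II transcription factors with a probe set, 8 were above the floor on at least 1 array and Ciita and Crebbp on none. Between iloprost and indomethacin 0 of 8 measured factors passed 2-fold, and their median was -0.01, with all measured genes at 0.04. Creb1, which encodes a CREB protein, was at -0.31. Kat2b, an acetyltransferase that modifies CIITA, was the lowest at -0.92, and at -1.21 for iloprost over vehicle it was the 1 factor past 2-fold there.

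Genes of the endosomal route that feeds class II molecules were above the floor in all dishes, against 50.3% of all genes. This held for each of the 12 with a usable probe set of 16 listed. Ctss, the protease that cuts the invariant chain, had signals of 2400.2 in the iloprost dish, 2668.1 in the indomethacin dish, 3129.1 in the IL-1β dish and 2528.4 in the vehicle dish. The protease Lgmn ran from 1048.5 to 1136.9, and Ifi30, the thiol reductase that unfolds antigens, from 395.4 to 456.6. For iloprost over indomethacin 0 of 12 passed 2-fold, and the ratios furthest from 0 were -0.21 for Ctsh and 0.20 for Ifi30.

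Parts of the interferon-gamma pathway that induces Ciita were measured as well. The receptor gene Ifngr1 had signals of 158.4, 126.6, 135.0 and 175.5 in the iloprost, indomethacin, IL-1β and vehicle dishes, and Ifngr2 had 500.4, 473.9, 508.0 and 446.2. The ligand gene Ifng stood between 0.2 and 2.1, below the floor in all dishes. Irf1, a factor that binds a Ciita promoter, had signals of 214.1 in the iloprost dish, 507.1 in the indomethacin dish, 334.3 in the IL-1β dish and 605.1 in the vehicle dish. Its log2 ratio was -1.25 for iloprost over indomethacin and -1.08 for IL-1β over vehicle, and as deposited the IL-1β ratio was under 2-fold. The kinase genes Jak1 and Jak2 were at -0.16 and -0.48 for iloprost over indomethacin, and the inhibitor Socs1 was at 0.33. Of 14 measured genes of this list, 6 were at least 2-fold lower for iloprost over indomethacin and 0 higher, with a median of -0.52. Among all genes measured, 3.21% were lower and 1.98% higher. The lower count in the list was 5 with equal trimmed means and with quantile normalization. Among the lower genes were the GTPases Igtp at -2.84, Irgm1 at -1.87 and Gbp3 at -1.67 and the myeloid factor Irf8 at -1.51. Of 8 further genes linked to Ciita control, 6 were above the floor and Irf4 and Il10 were not. Of these 6, 1 was at least 2-fold lower for iloprost over indomethacin, the IL-10 receptor gene Il10ra at -1.09, and the myeloid factor Spi1 was at -0.47.

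The class I route was described by a list of 10 genes with a probe set, of which 2, H2-K1 and H2-D1, encode class I chains and the others B2m, peptide transporters and loaders, proteasome subunits and a peptidase. All 10 were above the floor in all dishes, where 50.3% of all genes were. Class I chain genes as a whole were not, since of 13 with their own probe set 4 were above the floor on all arrays and 9 below it on all. For iloprost over indomethacin 5 of the 10 listed genes were at least 2-fold lower, against 3.21% of all measured genes. The list median was -0.97, with all measured genes at 0.04. The transporter Tap1 and the proteasome subunit Psmb9 were at -1.86 and -1.54, while the chain gene H2-K1 was at -0.07. Co-stimulatory genes, which a class II cell shows T cells along with peptide, were above the floor for 8 of 10. Of the 8 measured, 4 were at least 2-fold lower and 2 higher for iloprost over indomethacin, with a median of -0.82. The shares over all measured genes were 3.21% lower and 1.98% higher. Cd40, the receptor through which T cells signal to presenting cells, was at -2.46, and the adhesion gene Icam1 at -1.30. Cd86 was at -0.47 and Cd80 at 0.79, while Cd274, the inhibitory ligand PD-L1, was at -2.31 and Havcr2, the receptor TIM-3, at a bound of at least 3.17. The only class II ratio beside these at the same floor was that of Cd74, a bound of at most -0.01. Its indomethacin signal was just above that floor, so a 2-fold fall could not have been seen there. With the floor lowered to the 35th percentile, 2-fold was not reached for iloprost over indomethacin by Cd74, measured at -0.31, or H2-DMa, at -0.14. The list medians above are not given at the lowered floor. A difference between the lists could not be tested.

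**Figure D3:**
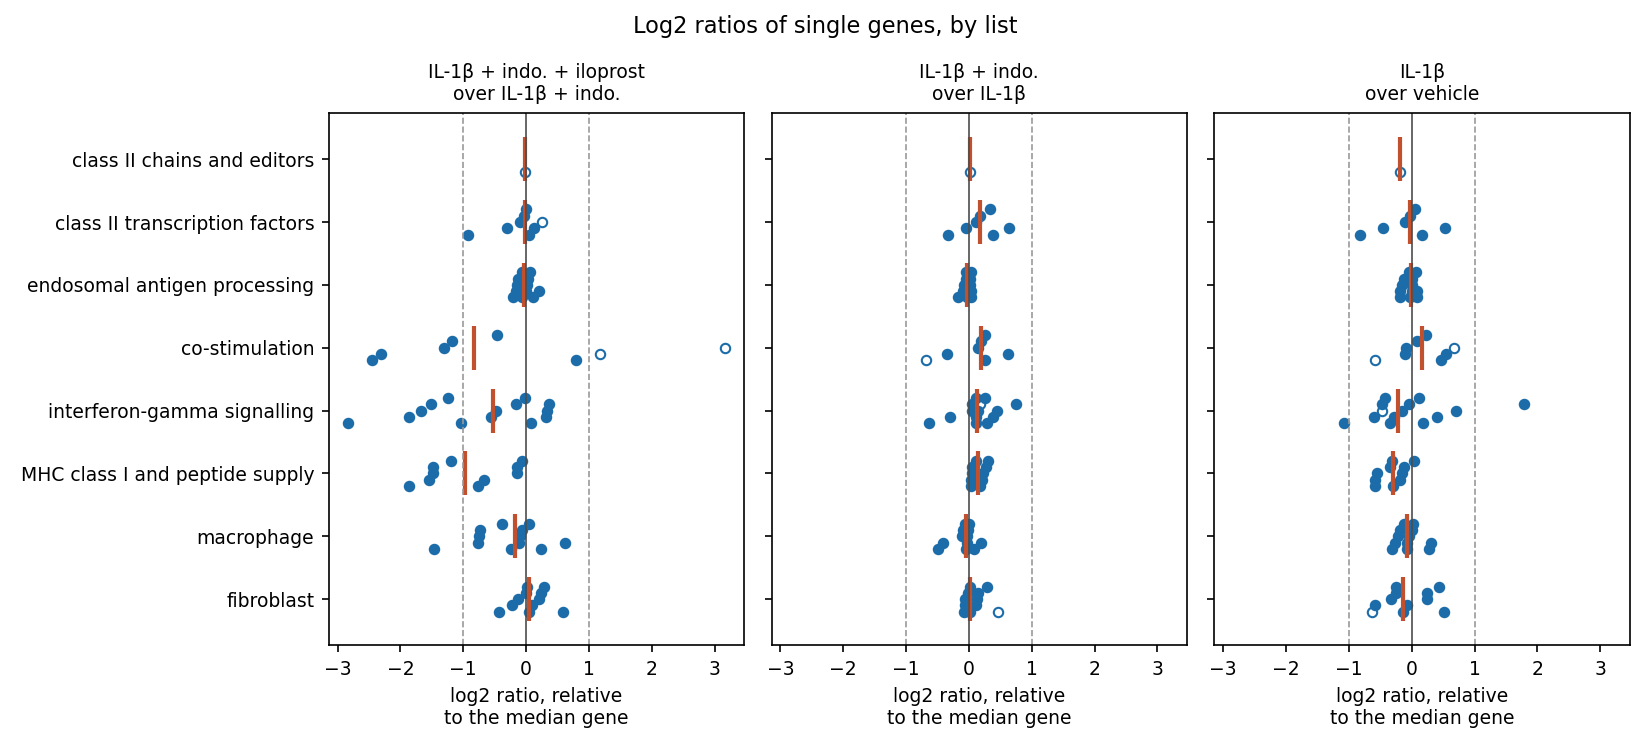
Log2 ratios relative to the median gene for iloprost over indomethacin, indomethacin over IL-1β and IL-1β over vehicle, with each point a gene, open points bounds set by the floor, red bars list medians and dashed lines 2-fold. The class II row holds Cd74 alone, at bounds set by the floor of at most -0.01, at least 0.01 and at most -0.19. The median of the class I and peptide supply list for iloprost over indomethacin is -0.97, a fall that Cd74 could not show at this floor.

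The cell types in the dishes were read from marker genes. All 11 fibroblast markers were above the floor on at least 1 array, with Col1a2 between 5510.5 and 5697.6 and Vim between 5539.4 and 6052.0. The fibroblast markers furthest from 0 for iloprost over indomethacin were the lubricin gene Prg4 at 0.59 and the receptor gene Pdgfrb at -0.43. Macrophage markers, from cells that usually express class II, were above the floor for 12 of 14, with Csf1r between 3997.7 and 4730.6 and Lyz2 between 5341.9 and 6246.8. Signals of the macrophage list were also summed as deposited, before the arrays were scaled. The sum was 24370 in the iloprost dish, 24990 in the indomethacin dish, 29720 in the IL-1β dish and 25610 in the vehicle dish. After scaling, the median log2 ratio of this list for IL-1β over vehicle was -0.08. Cd163 and Mertk were below the floor in all dishes. For iloprost over indomethacin Fcgr1, which encodes an Fc receptor, was the 1 of the 12 measured past 2-fold, at -1.46, and the list median was -0.17. Adgre1, which encodes the macrophage antigen F4/80, was at -0.77, and Cd68 at -0.11. In bulk RNA, fewer cells of a type and less RNA per cell cannot be told apart.

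Markers of the other class II cell types were mostly below the floor. Of 8 dendritic cell markers 7 were below it on all arrays, among them Itgax between 17.4 and 31.8 and Flt3 between 1.6 and 11.6. Cd83, the 1 measured, was at 1.18 for iloprost over indomethacin. Of 5 B cell markers 4 were below it, with Cd79a between 6.0 and 10.9, and Blnk, an adaptor that macrophages also express, was measured. All 7 T and NK cell markers were below the floor, with Cd3e between 1.6 and 3.7, and so were all 5 endothelial markers. Cd207, the lectin of Langerhans cells, had signals of 475.2 in the iloprost dish, 41.0 in the indomethacin dish, 66.9 in the IL-1β dish and 39.7 in the vehicle dish. Epcam, the other Langerhans cell marker, was between 0.7 and 9.2, below the floor. Class II genes were thus below the floor also in the dish where Cd207 was highest.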

How the data were processed

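For each of 22690 probe sets the authors deposited 1 linear intensity on each of 4 arrays. Labelling and hybridisation followed the standard Affymetrix protocol, per the labels. How probes were summarised, background-corrected and scaled is not given in the sources used here. Probe sets were named through the platform annotation, checked by gene number against RefSeq (GRCm38.p6), which changed 0 symbols. There 20380 named 1 gene, after control probe sets were left out, 691 named several and 1606 were unnamed here.

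Arrays were scaled to a common median over the 6222 genes above the 50th percentile on every array, then floored at a scaled signal of 37.7 and log2 transformed. Where a gene had several probe sets, the one brightest on average over the arrays was used, and called means past 2-fold. All members were named, with the 2 to 4 genes of each list furthest from 0 for iloprost over indomethacin, where so many were measured, and a set of named partners and markers. The 14 lists held 141 entries, of which 125 had a usable probe set and 16 are not analysed here. Members and lists were chosen with earlier results of these data known. The number of arrays limits the precision. Alternatives were 3 scalings, 3 floors, the mean over probe sets and a 1.5-fold threshold. The calculation was tested on simulated data. Python 3.11.15, numpy 2.4.6, pandas 2.3.3 and matplotlib 3.10.9 were used.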

Additional observations from a re-analysis of the deposited data

How the results depend on the processing

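No paired analysis was possible because each treatment has 1 array. The number of the 6 genes above the floor on at least 1 array was 1 with the floor at the 50th percentile, and it was 5 with the floor at the 25th percentile, 3 at the 35th and 0 at the 65th. At the 25th percentile H2-Ab1 alone was below the floor on every array, and at the 35th the genes above it were H2-Eb1, H2-DMa and Cd74. The floors for this count were chosen after seeing the data. The 3 other scalings and the mean over probe sets each left 1 gene above the floor, Cd74. The median ratio of the measured members for iloprost over indomethacin was -0.01 at the 50th percentile, the bound of Cd74 alone. It was -0.23 when the floor was the 35th or 25th percentile, where 2 members were measured. At the 25th percentile, added after seeing the data, 5 members had a ratio over vehicle, some at bounds. Their median was -0.57 for IL-1β over vehicle, -0.49 for iloprost over vehicle and -0.43 for indomethacin over vehicle. At the 50th these were -0.19, -0.19 and -0.18, from Cd74 alone. For these ratios the 35th percentile was planned beforehand, and there the median of 3 members was -0.01 for each dish over vehicle. That value was the bound of H2-Eb1, with H2-DMa higher and Cd74 lower. The Cd74 ratios at the 25th percentile were those at the 35th. With the floor at the 65th percentile no member had a ratio. As deposited, and with equal trimmed means, none had one for indomethacin over IL-1β or iloprost over indomethacin. The count of members at least 2-fold lower was 0 in all 6 comparisons with the floor at the 25th percentile, where 2 to 5 members had a ratio, and at the 35th, where 2 or 3 did, though H2-Eb1 at the 25th was at a bound of at most -0.95 for each of the other dishes over vehicle. It was also 0 with the other scalings, the mean over probe sets and the 1.5-fold threshold, where at most 1 member was measured and a count of 0 says little.

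The split of all genes past 2-fold depended on scaling for IL-1β over vehicle, with 77.4% of them higher (123 higher, 36 lower), against 94.7% as deposited (195 and 11). For indomethacin over IL-1β it was 27.0% (17 and 46), against 13.0% as deposited (9 and 60). For indomethacin over vehicle 22 genes were lower, against 12 as deposited. With the floor at the 35th percentile, 103 genes were lower for indomethacin over IL-1β, 96 for IL-1β over vehicle and 92 for indomethacin over vehicle. There 190, 39, 271, 147, 141 and 319 genes were higher for IL-1β over vehicle, indomethacin over IL-1β, iloprost over indomethacin, iloprost over IL-1β, indomethacin over vehicle and iloprost over vehicle, against 123, 17, 139, 62, 93 and 197 with the floor at the 50th. With the floor at the 65th percentile, 10, 79, 29 and 123 genes were higher for indomethacin over IL-1β, iloprost over indomethacin, iloprost over IL-1β and iloprost over vehicle, and 14 and 2 lower for IL-1β and indomethacin over vehicle. The cause was not tested.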

Other observations

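Every gene whose symbol begins with H2- and that has its own probe set was looked at after the class II values were known. Of these 21 genes, 4 were above the floor on all arrays and 17 below it on all, against 50.3% and 42.3% of all genes. The 4 were the classical class I genes H2-K1 and H2-D1 and the non-classical class I genes H2-M3 and H2-T24. H2-M3, which presents formylated peptides, had signals of 194.9 in the iloprost dish, 418.2 in the indomethacin dish, 370.7 in the IL-1β dish and 399.2 in the vehicle dish. H2-T24 had signals of 46.0, 229.6, 201.2 and 235.6 in the iloprost, indomethacin, IL-1β and vehicle dishes. Their log2 ratios for iloprost over indomethacin were -1.11 and -2.33, where H2-K1 was at -0.07 and H2-D1 at -0.14. The iloprost dish was the lowest for H2-M3 and H2-T24, and with 1 array per dish this has no test.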
